A study of Mus musculus with 5 samples.

Results

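H3K14ac was followed over 10 genes that the endothelium and stroma of the bone marrow are known for: Cxcl12, Kitl, Angpt1, Lepr, Pdgfra, Pdgfrb, Kdr, Flt4, Cdh5 and Pecam1. They were taken by name from the 27179 genes in the count tables, and all 10 were found by their Entrez identifiers. The mark, a histone H3 acetylated at lysine 14, was mapped by CUT&Tag: an antibody brings the Tn5 transposase to it, and DNA close by is cut and tagged. LSK cells of male C57BL/6 mice were used, that is, marrow cells negative for lineage markers and positive for Sca-1 and Kit, a fraction rich in blood stem cells and their first progeny. The Hbo1-KO libraries (genotype Hbo1def/def; T/+) and the heterozygous control libraries (Hbo1def/+; T/+) number 2 each, so the controls also carry 1 def allele and the same T/+ allele, which the labels do not spell out. All mice received poly(I:C) to induce Mx1-cre, a transgene driven by an interferon-responsive promoter that is not restricted to blood cells. Kat7 encodes HBO1, an enzyme that places this acetyl group, and the comparison asks how the mark differs without it. The labels do not say that each library is a mouse of its own, so p-values reflect only the spread among these samples, which may be technical.

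In the marrow, stem cells lie beside sinusoidal vessels and perivascular mesenchymal cells. The mesenchymal cells, often identified by the leptin receptor and the PDGF receptors, are the main source of CXCL12, which retains stem cells through CXCR4. They are also a source of stem cell factor (KITL), which signals through KIT. Endothelial cells carry the VEGF receptors VEGFR2 (Kdr) and VEGFR3 (Flt4), the junction protein VE-cadherin (Cdh5) and CD31 (Pecam1), and they too make stem cell factor. Some of these genes are not limited to the niche: CD31 is also found on blood stem cells and leukocytes, and Angpt1, a ligand of the TEK receptor, is expressed by blood stem and progenitor cells as well as stroma.

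The promoters of Kitl, Flt4 and Kdr are shown because Kitl had the lowest fold of the 10 over its gene body, Flt4 was the 1 gene whose upstream and gene body differences were told apart by test, and Kdr lies on the same stretch of chromosome 5 as Pdgfra and Kit. Each is the 250 bases before a RefSeq transcript start in GRCm38.p6, 5′ to 3′ on the gene's strand, with CG dinucleotides in capitals. Kitl is at chr10:100015571-100015820 (+), Flt4 at chr11:49609429-49609678 (+) and Kdr at chr5:75978456-75978705 (-).
Kitl: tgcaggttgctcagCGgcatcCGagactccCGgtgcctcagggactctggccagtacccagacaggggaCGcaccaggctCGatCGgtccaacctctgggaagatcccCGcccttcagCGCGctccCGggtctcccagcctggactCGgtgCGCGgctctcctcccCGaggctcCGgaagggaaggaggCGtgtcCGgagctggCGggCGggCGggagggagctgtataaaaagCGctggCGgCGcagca
Flt4: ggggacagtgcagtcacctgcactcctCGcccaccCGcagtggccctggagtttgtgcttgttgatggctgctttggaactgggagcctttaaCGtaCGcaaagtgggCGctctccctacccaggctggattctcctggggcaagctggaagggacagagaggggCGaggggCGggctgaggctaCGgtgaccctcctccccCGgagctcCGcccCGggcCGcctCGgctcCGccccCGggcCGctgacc
Kdr: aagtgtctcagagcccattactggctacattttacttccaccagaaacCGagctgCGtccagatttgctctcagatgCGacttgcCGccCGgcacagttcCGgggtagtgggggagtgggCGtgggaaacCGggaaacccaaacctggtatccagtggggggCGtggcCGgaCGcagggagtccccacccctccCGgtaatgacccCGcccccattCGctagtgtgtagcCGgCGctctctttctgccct
The Kitl window held 23 CG, the Flt4 window 16 and the Kdr window 16, against a median of 6 over 27025 such windows. The word TATAAA, read on both strands, was in the Kitl window and in 13.0% of all windows, and in neither of the other 2. GGAA, the core word of ETS factor sites, read on both strands, occurred 3 times in Kitl, 2 times in Flt4 and 4 times in Kdr, where the median window holds 3 and 93.4% hold at least 1. Windows for Cxcl12, Lepr and Pdgfra held 14, 10 and 4 CG. Sequences of Angpt1, Pdgfrb, Cdh5 and Pecam1 are not shown.

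The authors counted reads over 3 region classes: the 5 kb before the start site (upstream), the gene body, and the 5 kb after the transcript end (downstream). Totals per library lay between 4723549 and 12386891 counts in the gene body class, between 869859 and 1164409 upstream and between 677213 and 1260351 downstream, with the KO libraries the shallower in each class. No spike-in was stated, so a fold depends on how libraries were scaled, here by TMM (trimmed mean of M-values). Levels below are TMM-scaled CPM, reads relative to the scaled library total within a region class. The test in each class was the edgeR quasi-likelihood F-test over all genes, with Benjamini-Hochberg adjusted p and a threshold of 0.05. Kat7, the deleted gene, carried 63.6 ± 34.8 CPM of the mark over its gene body in KO libraries and 30.4 ± 0.45 CPM in controls (SD, n = 2 each), and counts of a histone mark do not check the deletion. Fewer cells that carry a mark and less of the mark per cell cannot be told apart in these bulk libraries.

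Over gene bodies, H3K14ac fell in the KO libraries at 5 of the 10 genes, Kitl, Lepr, Pdgfra, Cdh5 and Flt4. It rose at 0 of them, and the remaining 5 did not pass. Among all 21393 gene bodies tested, 15.2% fell and 23.1% rose, together 38.3%. In 8 of the 10 genes both KO libraries lay below both controls, where 39.4% of all gene bodies did so. Pecam1 alone had both KO libraries above both controls, as did 40.6% of all gene bodies, and Angpt1 overlapped between the groups. The median log2 fold of the 10 was -0.72, and that of all gene bodies was 0.02. For 549 tested gene bodies of olfactory and vomeronasal receptors it was -0.86, with 100 lower and 0 higher. Only these 549 of 1485 passed the count filter, which a gene can do through the group where its counts are high. Their median is therefore no measure of how unusual that of the 10 is.

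Kitl, the gene of stem cell factor (Entrez 17311, chromosome 10, 100015615 to 100100416, plus strand), had 178 and 464 counts over its gene body in KO libraries 1 and 2, against 1709 and 1105 in control libraries 1 and 2. Scaled, these are 32.9 and 69.2 CPM in KO libraries, against 169 and 109 CPM in controls. Both KO libraries were below both controls, and KO replicate 1 was the lowest. The log2 fold was -1.44 ± 0.31 (SE; edgeR adjusted p = 1.8e-04). The call was lost without control replicate 1 (log2 fold -1.11, edgeR adjusted p = 0.148) and it held without each of the other libraries, with log2 folds from -2.02 to -0.97.

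Cxcl12, the chemokine ligand of CXCR4 (Entrez 20315, chromosome 6, 117168535 to 117181368, plus strand), had the fewest gene body counts of the 10: 55 and 64 in KO libraries, against 175 and 155 in controls. Its levels of 10.2 and 9.54 CPM in KO libraries lay below the 17.3 and 15.3 CPM of controls without overlap, yet the log2 fold of -0.73 ± 0.41 did not pass (edgeR adjusted p = 0.151). Angpt1, the longest of the 10 with a deposited gene body of 252073 bp (Entrez 11600, chromosome 15, 42424667 to 42676977, minus strand), had 273 and 295 CPM in KO libraries, against 282 and 292 CPM in controls. The 4 values interleaved, and the log2 fold was -0.02 ± 0.31 (edgeR adjusted p = 0.974). An annotated long non-coding RNA, Gm41313, overlaps 35019 bp of the Angpt1 gene body. Reads in that stretch cannot be told apart between these genes, and how they were counted is not stated.

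Among the stromal receptors, Lepr, the leptin receptor gene (Entrez 16847, chromosome 4, 101717137 to 101815352, plus strand), had 58.8 and 82.5 CPM over its gene body in KO libraries, against 151 and 126 CPM in controls. The groups did not overlap and the log2 fold was -0.97 ± 0.29 (edgeR adjusted p = 0.00682). Pdgfra, the PDGF receptor alpha gene (Entrez 18595, chromosome 5, 75151322 to 75198206, plus strand), had 34.8 and 49.4 CPM in KO libraries, against 94.3 and 73.1 CPM in controls. Its log2 fold was -0.99 ± 0.30 (edgeR adjusted p = 0.00679), and again the groups stood apart. Pdgfrb, the PDGF receptor beta gene (Entrez 18596, chromosome 18, 61045127 to 61085067, plus strand), had 68.8 and 60.5 CPM in KO libraries, against 73.8 and 79.0 CPM in controls. The Pdgfrb groups were separate but close, with a log2 fold of -0.24 ± 0.29 that did not pass (edgeR adjusted p = 0.513).

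Of the endothelial genes, Cdh5, the VE-cadherin gene (Entrez 12562, chromosome 8, 104101613 to 104144504, plus strand), had 51.6 and 69.5 CPM over its gene body in KO libraries, against 130 and 89.8 CPM in controls. Its log2 fold was -0.86 ± 0.29 (edgeR adjusted p = 0.0168). Flt4, the gene of VEGFR3 (Entrez 14257, chromosome 11, 49609679 to 49652739, plus strand), had 52.5 and 62.0 CPM in KO libraries, against 106 and 81.7 CPM in controls, a log2 fold of -0.71 ± 0.29 (edgeR adjusted p = 0.0435). In both genes the KO libraries were the lower pair, with KO replicate 1 the lowest of the 4 and control replicate 1 the highest. Kdr, the gene of VEGFR2 (Entrez 16542, chromosome 5, 75932827 to 75979072, minus strand), had 48.8 and 75.0 CPM in KO libraries, against 103 and 90.4 CPM in controls. Its log2 fold of -0.64 ± 0.29 missed the threshold (edgeR adjusted p = 0.0712). Pecam1, the CD31 gene (Entrez 18613, chromosome 11, 106654213 to 106715281, minus strand), went the other way, with 102 and 86.2 CPM in KO libraries, against 55.8 and 72.8 CPM in controls. Its log2 fold of 0.54 ± 0.29 did not pass (edgeR adjusted p = 0.122).

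**Figure D1:**
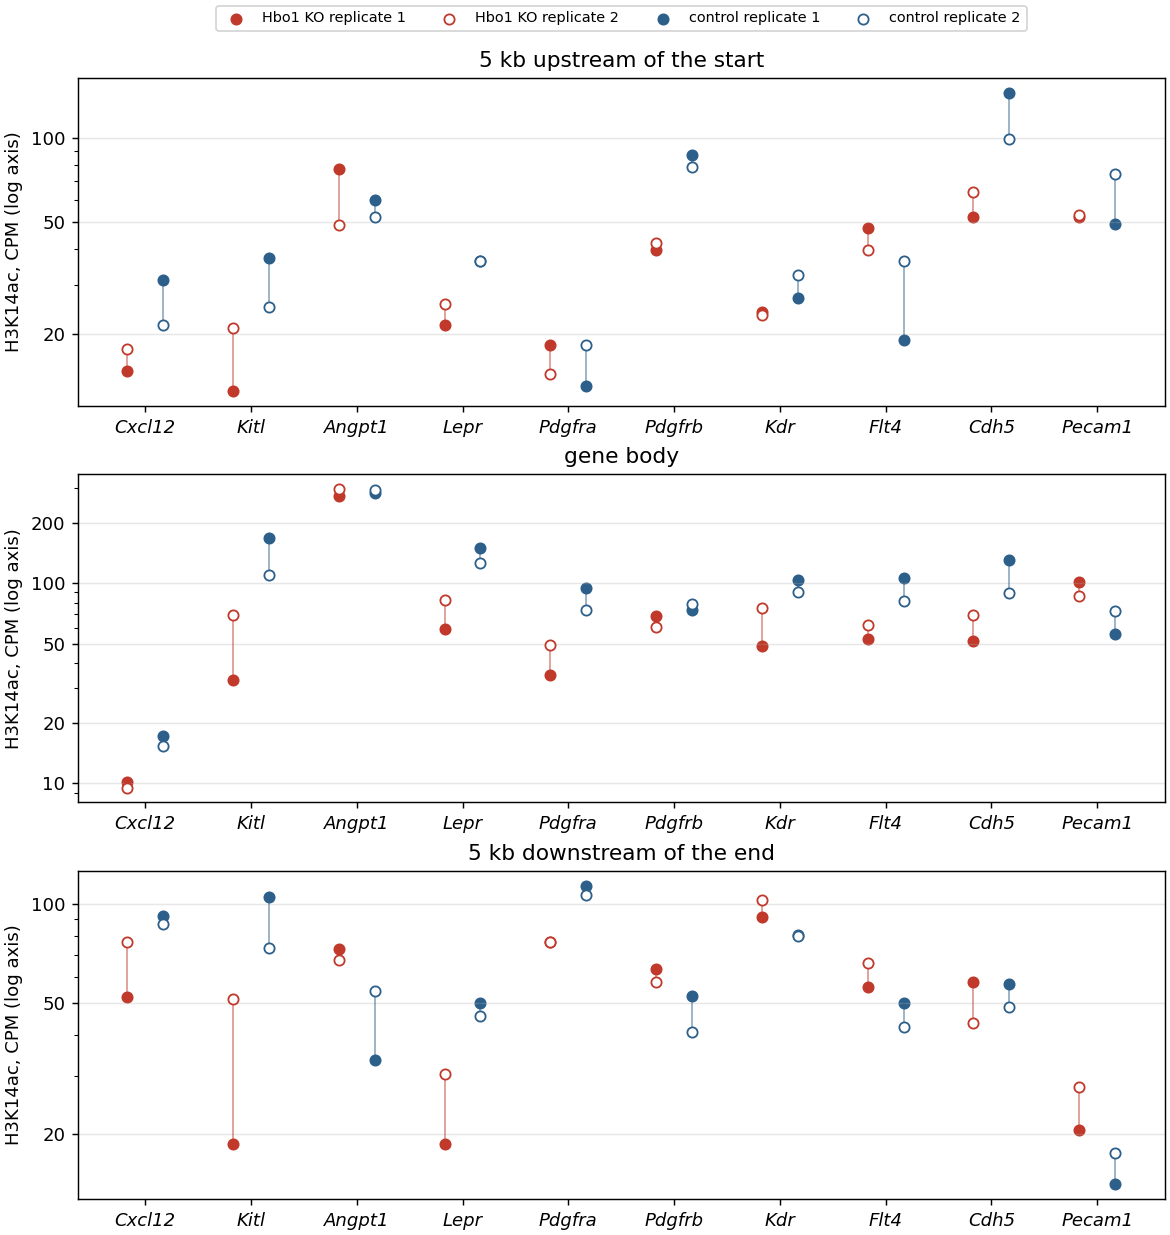
H3K14ac level of each gene in each library, in TMM-scaled CPM on a log axis, over the 3 region classes. Red points are Hbo1-KO libraries and blue points controls, filled for replicate 1 and open for replicate 2, joined within a group. Over gene bodies both KO points lie below both control points for 8 of the 10 genes, with Pecam1 reversed and Angpt1 mixed.

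The calls of Lepr, Pdgfra, Cdh5 and Flt4 rested on particular libraries and on the scaling. Each was lost without either control and without KO replicate 1. The log2 folds without control replicate 1 were -0.84 (Lepr), -0.81 (Pdgfra), -0.58 (Cdh5) and -0.52 (Flt4). Without control replicate 2 they were -1.10, -1.17, -1.11 and -0.90 in the same order, and without KO replicate 1 they were -0.71, -0.73, -0.62 and -0.57. Over all genes, 0.0987% of gene bodies were called lower without control replicate 1, 4.89% without control replicate 2, 4.95% without KO replicate 1 and 21.2% without KO replicate 2. Scaling on the olfactory and vomeronasal receptors, which are thought to be silent in blood, put the median log2 fold of all gene bodies at 0.66, against 0.02 with TMM, and ended all 5 falls. The log2 folds were then -0.82 for Kitl, -0.35 for Pdgfra, -0.33 for Lepr, -0.21 for Cdh5 and -0.06 for Flt4, and the median of the 10 was -0.06. Under that scaling 0.893% of all gene bodies were called lower and 20.7% higher, and 2 of the 10, near that share, were called higher, Pecam1 (log2 fold 1.19, edgeR adjusted p = 0.0478) and Angpt1 (0.63, edgeR adjusted p = 0.0498). Scaling on library totals moved the median of all gene bodies to 0.36. It left the fall of Kitl (-1.08) as the 1 call of a fall among the 10, where 4.63% of all gene bodies fell, and Pecam1 was then called higher (0.88), where 29.8% of all gene bodies were.

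**Figure D2:**
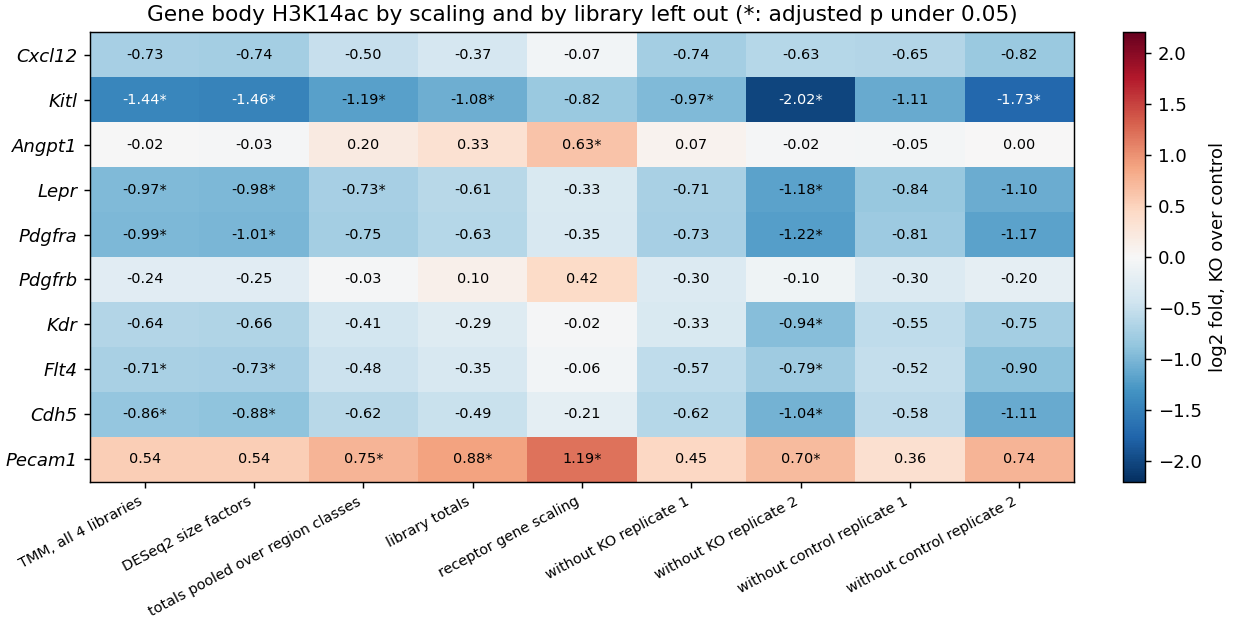
Log2 fold (KO over control) of gene body H3K14ac for the 10 genes under 5 scalings and with each library left out, as colour and number; a star marks an edgeR adjusted p under 0.05. Kitl is negative in every column, from -2.02 to -0.82, and Pecam1 positive in every column, whereas Angpt1 and Pdgfrb change sign among the scalings.

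Upstream of the start site 0 of the 10 genes passed, where 24% of 23200 upstream regions rose and 14.3% fell, together 38.3%. Pdgfrb had an unadjusted edgeR p under 0.05, the 1 gene of the 10 to do so, and by the DESeq2 Wald test 0 passed and Cdh5 had an unadjusted p under 0.05. In 6 of the 10 both KO libraries lay below both controls, as in 39.9% of all upstream regions, and in 1, Flt4, above, as in 37.8%. Counts were low, between 11 and 167 per library, which limits what the upstream class can show. Cdh5 had 52.3 and 64.3 CPM upstream in KO libraries, against 145 and 99.4 CPM in controls, a log2 fold of -1.07 ± 0.56 (edgeR adjusted p = 0.115). Pdgfrb had 39.8 and 42.1 CPM in KO libraries, against 86.8 and 78.7 CPM in controls, a log2 fold of -1.01 ± 0.50 (edgeR adjusted p = 0.0926). The groups did not overlap in either gene, and the control replicates lay farther apart for Cdh5 than for Pdgfrb. For Kitl the upstream values were 12.5 and 21.1 CPM in KO libraries, against 37.3 and 24.9 CPM in controls (log2 fold -0.88 ± 0.50, edgeR adjusted p = 0.145). Those of Cxcl12 were 14.8 and 17.7 CPM in KO libraries, against 31.2 and 21.5 CPM in controls (-0.69 ± 0.51). Lepr and Kdr had log2 folds of -0.63 ± 0.47 and -0.33 ± 0.48, while Angpt1 (0.17 ± 0.49), Pdgfra (0.06 ± 0.53) and Pecam1 (-0.23 ± 0.48) overlapped between the groups. The receptor scaling put the upstream median over all genes at a log2 fold of 0.83, against -0.09 with TMM, and turned the signs of Cxcl12, Kitl, Lepr, Kdr and Pecam1.

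Other annotated genes reach into some of these windows. The upstream 5 kb of Cdh5 lie wholly within the long non-coding RNA gene Gm29682, which also covers 4261 bp of the Cdh5 gene body, and those of Kdr within Gm32727, which also covers 1741 bp of the Kdr gene body. Gm52351 covers 4587 bp upstream of Pdgfrb. Reads there count for both genes' neighbourhoods, and these positions are from GRCm38.p6, whereas the authors' own start sites are not stated.

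Downstream of the transcript end 0 of the 10 passed, against 10.8% of 21566 regions that rose and 2.29% that fell, together 13.1%. Kitl and Lepr had an unadjusted edgeR p under 0.05, and by the DESeq2 Wald test 0 passed and Kitl had one. Kitl came nearest, with 10 and 39 counts downstream in KO libraries, against 134 and 92 in controls. Its levels were 18.6 and 51.4 CPM in KO libraries, against 105 and 73.4 CPM in controls, a log2 fold of -1.30 ± 0.42 (edgeR adjusted p = 0.0537). The call of Kitl downstream was made without KO replicate 2 (log2 fold -2.18), without control replicate 2 (-1.54), and with library totals (-1.44) or totals pooled over the region classes (-1.26). Lepr had 18.6 and 30.3 CPM in KO libraries, against 50.1 and 45.5 CPM in controls (-0.93 ± 0.38, edgeR adjusted p = 0.125). Both genes were lower in both KO libraries than in either control, as were Cxcl12 (-0.46 ± 0.38) and Pdgfra (-0.52 ± 0.41). Such a gap to the low side was found in 32.7% of all downstream regions. In 5 genes, Angpt1, Pdgfrb, Kdr, Flt4 and Pecam1, both KO libraries lay above both controls, as in 29.9% of all regions, with log2 folds from 0.28 to 0.67. Cdh5 overlapped (-0.08 ± 0.34).

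**Figure D3:**
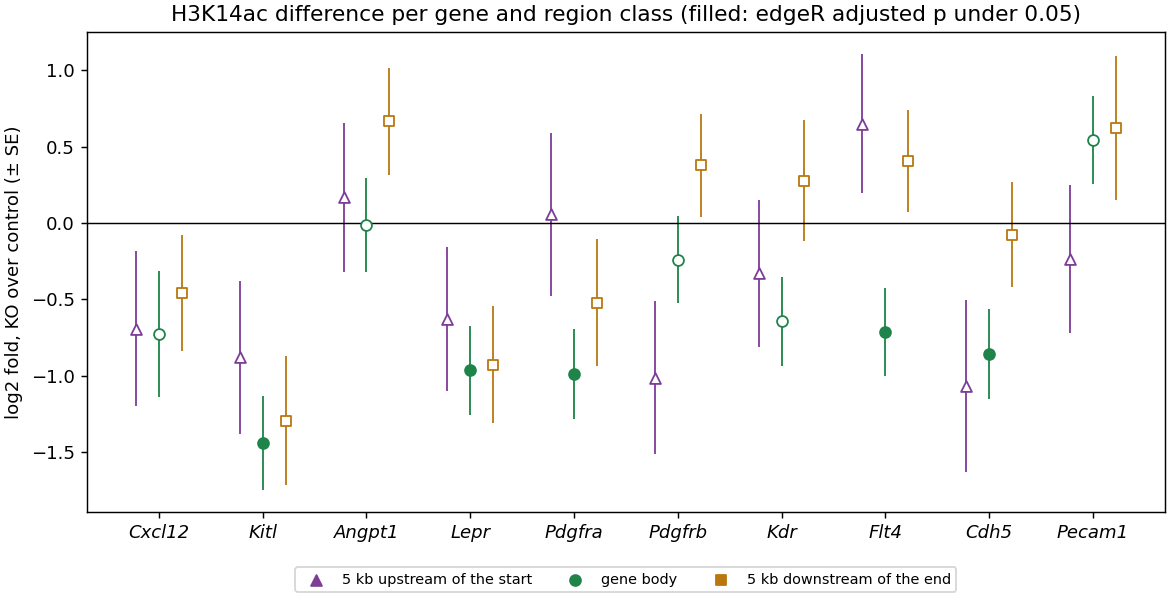
Log2 fold of H3K14ac (KO over control) with its standard error for each gene, with triangles for the upstream class, circles for the gene body and squares for the downstream class; filled symbols passed the test. The 5 filled symbols are gene body values. Kitl is negative in all 3 classes with TMM, from -1.44 to -0.88, though its upstream value is 0.022 with receptor scaling.

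Whether the difference upstream was unlike that over the gene body was tested as an interaction, with each library as a block and each class on its own TMM scale. Flt4 passed: its difference upstream exceeded that over the gene body by 1.37 ± 0.41 on the log2 scale (SE, edgeR adjusted p = 0.0283). Among 19996 genes 10.2% passed in this direction and 5.27% in the other, together 15.5%, so 1 of the 10 is near the share of all genes. The upstream values of Flt4 were 47.7 and 39.9 CPM in KO libraries, against 19.1 and 36.5 CPM in controls, so the KO libraries were the higher pair there and the lower pair over the gene body. The upstream difference of Flt4 alone did not pass (log2 fold 0.65 ± 0.46, edgeR adjusted p = 0.238). Control replicate 1 had 22 reads there, the fewest of the 4 libraries, and without it the interaction was 0.79 and did not pass (edgeR adjusted p = 0.54). With library totals it was 0.84 and did not pass either. For Pdgfra the interaction was 1.05 ± 0.47, for Pdgfrb -0.77 ± 0.34 and for Pecam1 -0.76 ± 0.33, with edgeR adjusted p between 0.134 and 0.141. With library totals Pdgfrb passed (-1.31, edgeR adjusted p = 0.0143), as did Pecam1 (edgeR adjusted p = 0.0141). Without KO replicate 2 Pdgfra passed (1.57, edgeR adjusted p = 0.0149), and Pecam1 passed narrowly (-0.80). None of the other 6 passed (edgeR adjusted p from 0.389 to 0.968), and for them a difference between the classes was not detectable in these libraries.

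Levels between genes were set side by side as gene body CPM per kb, with the library's counts summed over the 3 region classes as the total and no test. In KO libraries the order by mean was Pdgfrb (1.39), Pecam1 (1.32), Cdh5 (1.21), Kdr (1.18), Flt4 (1.14), Angpt1 (0.97), Pdgfra (0.79), Cxcl12 (0.66), Lepr (0.62) and Kitl (0.52). Each gene overlapped with the next in that order. In controls it was Cdh5 (1.86), Flt4 (1.59), Kdr (1.57), Pdgfrb (1.41), Pdgfra (1.33), Kitl (1.19), Lepr (1.03), Cxcl12 (0.93), Angpt1 (0.84) and Pecam1 (0.78). Neighbours in the control order overlapped between their 2 libraries except Kdr with Pdgfrb, Lepr with Cxcl12, and Cxcl12 with Angpt1. Among all tested gene bodies, Kitl stood at percentile 22.4 in KO libraries and 77.6 in controls, and Cdh5 at 75.6 and 93.5. Pecam1 stood at percentile 79.6 in KO libraries and 59.0 in controls, and Angpt1 at 61.4 and 61.9.

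The density over the 10 genes lay above that of all named genes in either group, by median. Its median was 0.90 and 1.13 CPM per kb in KO libraries 1 and 2, against 1.31 and 1.14 in control libraries 1 and 2, so KO replicate 2 was close to control replicate 2. For all 25275 named genes it was 0.68 and 0.73 in KO libraries, against 0.47 and 0.58 in controls. Olfactory and vomeronasal receptor genes, 1485 in number, had medians of 0.31 and 0.41 in KO libraries, against 0.36 and 0.42 in controls. These include receptor genes that failed the count filter, which all 10 passed. For the 549 receptor genes that passed it, the median of the group means was 0.82 in KO libraries and 1.47 in controls. For the 10 it was 1.05 and 1.26. The filtered receptors were selected by their counts, so their medians cannot serve as a reference level for the 10. Reads per kb also depend on how much of a gene can be mapped, which was not given.

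**Figure D4:**
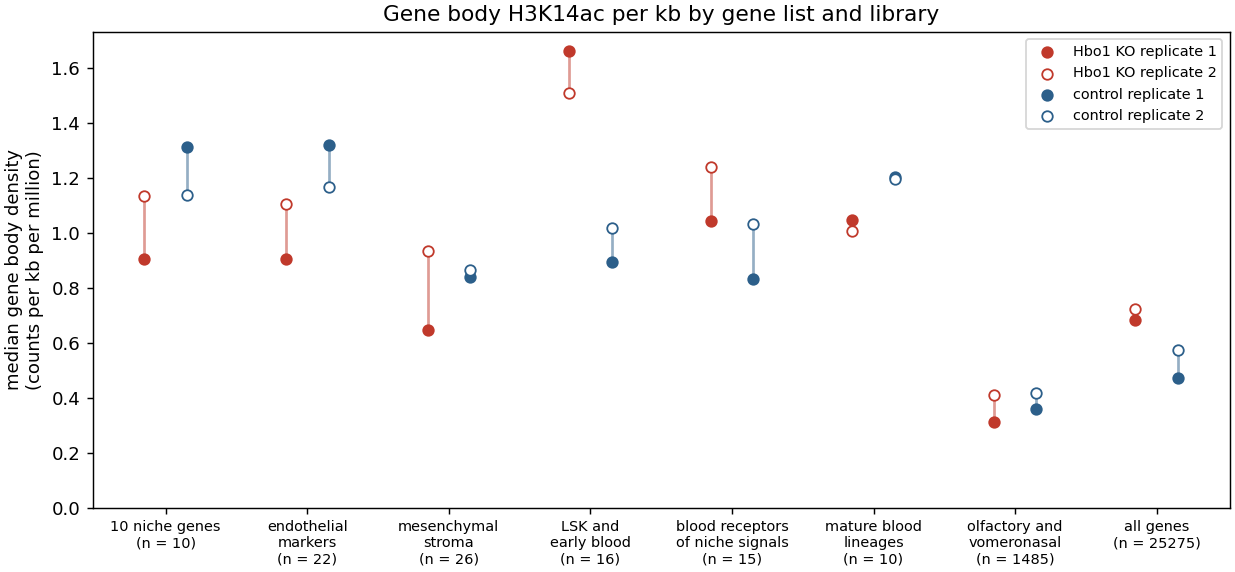
Median gene body density of H3K14ac, in CPM per kb of the library's counts over the 3 region classes, for the 10 niche genes, 6 other gene lists and all named genes. Red is Hbo1-KO and blue is control, filled for replicate 1 and open for replicate 2. Control medians of the 10 niche genes (1.31 and 1.14) lie above those of LSK and early blood genes (0.89 and 1.02), and KO medians of LSK genes (1.66 and 1.51) lie above those of the 10 (0.90 and 1.13).

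The labelled cell type was set against marker lists. Over gene bodies, 16 LSK and early blood genes summed to 2080 and 1395 CPM in KO libraries, against 1165 and 1104 CPM in controls. The 22 endothelial markers, 4 of them among the 10, summed to 1270 and 1529 CPM in KO libraries, against 2429 and 1911 CPM in controls. The 26 mesenchymal markers, 6 of them among the 10, summed to 1288 and 1271 CPM in KO libraries, against 1613 and 1412 CPM in controls. Both marker sums were lower in both KO libraries than in either control. So was that of 10 mature lineage genes, with 168 and 156 CPM in KO libraries, against 211 and 181 CPM in controls. Downstream the endothelial sum overlapped between the groups (964 and 971 CPM in KO libraries, 1050 and 879 CPM in controls), while the mesenchymal sum was lower in both KO libraries. These sums are on TMM scaling, and the endothelial and mesenchymal ones contain the 10 genes. Their part in the falls of the 10 was not tested. No endothelial or mesenchymal marker was at 0 over the gene body in any library. Of 10 genes of mature lineages that the gate removes, the B cell gene Ms4a1 was listed at 0 over the gene body in all 4 libraries. Upstream it had 31 and 46 counts in KO libraries, against 99 and 86 in controls. No background library was analysed, so these counts do not show whether the mark was present at Ms4a1. The cause of the 0 was not tested. In controls the median density per kb was 0.96 for LSK genes and 1.28 for endothelial markers, so gene body H3K14ac does not check the label.

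The same cell types' markers outside the 10 were counted next. For this and the following lists, the shares over all genes with TMM were 15.2% lower and 23.1% higher over gene bodies. Upstream they were 14.3% and 24%, and downstream 2.29% and 10.8%. Over gene bodies they were 0.893% and 20.7% with receptor scaling, and 4.63% and 29.8% with library totals. Receptor scaling gave 39 lower and 7188 higher of 23200 upstream regions, and 61 and 2098 of 21566 downstream regions. Pooled totals gave 458 lower and 7668 higher upstream, and 1360 and 5666 of 21393 gene bodies. Of 17 further endothelial markers tested over gene bodies 4 fell and 0 rose (median log2 fold -0.48), but with receptor scaling 0 fell and the median was 0.18. With library totals 2 fell and 1 rose, and the median was -0.12. Ptprb, an endothelial receptor phosphatase gene, had 65.4 ± 16.1 CPM in KO libraries and 150 ± 31.5 CPM in controls (SD, n = 2 each; log2 fold -1.19 ± 0.29, edgeR adjusted p = 0.00104). Stab2, a scavenger receptor gene of sinusoidal endothelium, fell by 1.20 ± 0.32 on the log2 scale. Upstream, 5 of 17 fell and 0 rose (with receptor scaling 0 fell), among them Stab2 (-1.99 ± 0.53) and Tie1, an orphan receptor gene of endothelium (-1.86 ± 0.54). Downstream 0 of 16 fell and 1 rose, Nos3, the endothelial nitric oxide synthase gene (2.49 ± 0.48). Of 18 further mesenchymal markers 4 fell and 1 rose over gene bodies (median -0.48), but with receptor scaling 0 fell and the median was 0.15, and with library totals 0 fell and 2 rose. Ebf3, a transcription factor gene of marrow stroma, fell (-0.99 ± 0.29) and Runx2, a bone transcription factor gene, rose (0.83 ± 0.32). Upstream 1 of 19 rose, the adipocyte hormone gene Adipoq (1.58 ± 0.60), and 1 fell, the bone matrix gene Ibsp (-1.39 ± 0.48), and downstream 0 of 19 passed.

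Other niche ligands and adhesion genes gave 7 lower and 3 higher of 23 gene bodies, 5 lower and 4 higher of 25 upstream regions, and 2 lower and 1 higher of 23 downstream regions. All genes gave 15.2% lower and 23.1% higher, 14.3% and 24%, and 2.29% and 10.8% in the same order. With receptor scaling these were 1 lower and 2 higher over gene bodies and 0 and 5 upstream. Of all 23200 upstream regions, 39 were lower and 7188 higher under that scaling. Pdgfd, a PDGF ligand gene, fell to 113 ± 52.9 CPM over its gene body in KO libraries, against 369 ± 126 CPM in controls (log2 fold -1.70 ± 0.33, edgeR adjusted p = 3.6e-05), and Ptn, the pleiotrophin gene, fell by 1.42 ± 0.30 on the log2 scale. Tgfb1 rose over its gene body, with 48.6 ± 32.8 CPM in KO libraries and 6.58 ± 0.36 CPM in controls (2.88 ± 0.39). Vegfa, the ligand gene of VEGFR2, also rose, with 35.5 ± 18.6 CPM in KO libraries and 14.4 ± 0.61 CPM in controls (edgeR adjusted p = 0.00362). Upstream, Pdgfc (-1.79 ± 0.49) and Pdgfd (-1.79 ± 0.50) fell, whereas Tgfb1 (2.35 ± 0.72) and the adhesion gene Icam1 (1.78 ± 0.53) rose. Downstream, Pdgfc (-1.45 ± 0.42) and Ptn (-1.24 ± 0.39) fell and the Notch ligand gene Dll4 rose (1.27 ± 0.36). In the family of VEGF, PDGF and angiopoietin receptors and their kin, the 8 genes outside the 10 gave 1 lower, Tek, and 1 higher, Flt3, over gene bodies. Upstream 1 of 7 fell, Tie1, and 1 rose, Flt3, and downstream 0 of 8 passed.

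The receptors that blood cells use for the ligands among the 10 were Kit, Cxcr4 and Tek. Kit, the receptor of KITL, had 722 and 838 counts over its gene body in KO libraries, against 1336 and 1316 in controls, or 129 ± 6.07 CPM in KO libraries and 131 ± 1.23 CPM in controls (log2 fold -0.02 ± 0.29, edgeR adjusted p = 0.962). Cxcr4, the receptor of CXCL12, rose: it had 423 and 211 counts in KO libraries, against 49 and 57 in controls (log2 fold 3.38 ± 0.39, edgeR adjusted p = 1.5e-10). Tek, the receptor of ANGPT1, which both endothelium and blood stem cells carry, fell, with 551 and 1103 counts in KO libraries, against 2909 and 2071 in controls (log2 fold -0.88 ± 0.31, edgeR adjusted p = 0.0182). The call of Tek was lost with library totals (-0.52), pooled totals (-0.64) and receptor scaling (-0.25), with the replicate block (-0.90), and without control replicate 1 (-0.63), control replicate 2 (-1.12) or KO replicate 1 (-0.55). Kit did not pass under any of these, and its log2 fold was 0.33 with library totals, 0.20 with pooled totals and 0.64 with receptor scaling. The 15 blood receptors of niche signals gave 4 higher and 1 lower over gene bodies, 6 and 1 upstream, and 2 and 0 downstream, and with receptor scaling 4 and 0, 5 and 0, and 1 and 0. Flt3, a cytokine receptor gene of progenitors, rose over its gene body (1.53 ± 0.30) and upstream (2.26 ± 0.55). Tgfbr2, a TGF-beta receptor gene, rose upstream (2.14 ± 0.70) and downstream (3.39 ± 0.97).

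Among LSK and early blood genes 8 of 16 rose and 1 fell over gene bodies, 6 and 1 upstream, and 2 and 0 downstream. Of all genes 23.1% rose and 15.2% fell, 24% and 14.3%, and 10.8% and 2.29% in the same order. Lmo2, a transcriptional regulator gene of blood stem cells, rose over its gene body (1.45 ± 0.31) and Slamf1, the CD150 gene, fell (-0.73 ± 0.30, edgeR adjusted p = 0.0436). With library totals, pooled totals or receptor scaling the call of Slamf1 was lost, as 0 of the 16 fell over gene bodies. Vav1, a signalling gene of blood cells, rose upstream (2.57 ± 0.61), and Meis1, a homeobox gene, downstream (2.58 ± 0.48). Ptprc, the CD45 gene of all leukocytes, rose over its gene body to 182 ± 71.6 CPM in KO libraries, against 71.9 ± 7.50 CPM in controls (log2 fold 1.34 ± 0.30, edgeR adjusted p = 3.3e-04). Genes of mature lineages gave 2 lower and 0 higher of 9 gene bodies, Cd8a of T cells (-1.18 ± 0.43) and Ncr1 of natural killer cells (-1.28 ± 0.47), but 0 lower with library totals, pooled totals or receptor scaling. Upstream 1 of 10 fell, Ncr1 (-1.60 ± 0.51), though with pooled totals or receptor scaling 0 fell and 1 rose, and downstream 1 of 10 rose, the B cell gene Cd79a (2.47 ± 0.53).

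Kit lies between 2 of the 10 genes. On chromosome 5, Pdgfra (75151322 to 75198206), Kit (75574987 to 75656722) and Kdr (75932827 to 75979072) are the 3 named genes of the count tables in the interval, in this order. Their gene body log2 folds were -0.99 ± 0.30, -0.02 ± 0.29 and -0.64 ± 0.29, so the middle gene had values in KO libraries that overlapped with controls while both neighbours were lower in both KO libraries. The difference between these genes was not tested.

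The CG content around the start site differed widely among the 10. The observed over expected CpG ratio in the 1000 bp around the start was 0.78 for Cxcl12, 0.77 for Flt4, 0.72 for Kitl and 0.66 for Kdr. It was 0.56 for Lepr, 0.54 for Angpt1 and 0.43 for Pdgfra, and 0.38 for Pdgfrb, 0.24 for Cdh5 and 0.22 for Pecam1. Among all genes, 8.71% of gene bodies with a ratio of at least 0.6 fell and 36.3% rose. Of those between 0.4 and 0.6, 18.3% fell and 19.2% rose, and of those under 0.4, 23.3% fell and 6.76% rose. Upstream, 3.46% fell and 42.8% rose at a ratio of at least 0.6, 14.5% and 18.2% between 0.4 and 0.6, and 26.3% and 5.96% under 0.4. The 5 falls were spread over the classes, with Kitl and Flt4 in the first, Lepr and Pdgfra in the second and Cdh5 in the third, and Pecam1, the gene with the lowest ratio, was the 1 with both KO libraries above both controls.

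Upstream density relative to gene body density gave a view that needs no scaling between libraries. For Kitl the ratio was 1.05 and 0.69 in KO libraries, against 0.43 and 0.46 in controls. For Lepr it was 1.17 and 0.81 in KO libraries, against 0.54 and 0.68 in controls, and for Flt4 1.27 and 0.75, against 0.18 and 0.46. Cxcl12 had 0.61 and 0.64 in KO libraries, against 0.53 and 0.43 in controls, and Pdgfra 0.78 and 0.36, against 0.14 and 0.27. In these genes both KO libraries were above both controls. The same was so of the median gene, at 1.11 and 1.01 in KO libraries and 0.84 and 0.87 in controls. The share of all genes that separated in this way was not counted. Angpt1, Kdr and Cdh5 overlapped between the groups. Pecam1 had 1.02 and 1.01 in KO libraries, against 1.23 and 1.49 in controls, and Pdgfrb 0.75 and 0.75, against 1.07 and 0.95, so these 2 ran opposite to the median gene.

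Over 12 values per gene (log2 CPM in 4 libraries and 3 region classes, centred within a class), Sucnr1, Dnase1l3 and Oas1d had the profiles nearest to the mean of the 10 among 17654 genes. Their Euclidean distances to it were 0.27, 0.31 and 0.35, against 0.50 for Kdr, the nearest of the 10, and 2.09 for Kitl, the farthest. The gene body log2 folds of these 3 genes, -0.78, -0.62 and -0.79, are given as a description.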

How the data were processed

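H3K14ac CUT&Tag counts were analysed for 2 Hbo1-KO and 2 heterozygous control libraries of LSK cells; the HBO1 (KAT7) library was not analysed here. Groups and replicate numbers are from the sample titles. The deposited values are whole-number read counts per Entrez gene, per the file headers, over 3 region classes. The submitters' processing notes name featureCounts and mm10; the aligner, annotation, duplicate handling and spike-in are not named in the sources at hand. The gene body length in bp is the other value the authors deposited, per the file headers. Series and per-library tables held the same values, with 0 differing. Symbols, positions and sequences are from RefSeq GRCm38.p6, which named 25275 of 27179 genes; promoters were listed for 6 of the 10.

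Each class was fitted on its own over all genes with edgeR 4.0.16 in R 4.3.3 (filterByExpr with minimum count 10 and minimum total 15, TMM, no covariate), and all 10 genes passed the filter in each class. The standard error is the size of the log2 fold divided by the square root of F. DESeq2 1.42.0 was an alternative. The edgeR steps were run on simulated counts with a fixed dispersion and far fewer changed genes than were called here. Such a run checks the code and not the calls made in these data. Python 3.11.15, pandas 2.3.3, numpy 2.4.6 and matplotlib 3.10.9 were used for levels and plots. The members and lists were chosen with earlier results of these data known. Beyond the 10, named genes are up to 2 rises and 2 falls per list and class with the smallest p, Kit, Cxcr4, Tek, Ptprc and Kat7, and the 3 nearest profiles. A gene of the lists that this rule selected is counted but not reported here.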

Additional observations from a re-analysis of the deposited data

How the results depend on the processing

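The call of a fall at Kitl over its gene body held with library totals, pooled totals, DESeq2 size factors, the DESeq2 Wald test, both filters and either block. It was lost with receptor scaling (-0.82) and without control replicate 1 (-1.11). Over gene bodies, the number of the 10 past the threshold was 5, and became 2 with library totals, 3 with pooled totals, 2 with receptor scaling, and from 0 to 7 with 1 library left out. Downstream it was 0, and became 1 with library totals, 1 with pooled totals, and from 0 to 1 with 1 library left out. The call of Flt4 over its gene body was also lost with no filter (-0.70), with a mean count of at least 50 (-0.59) and by the DESeq2 Wald test (-0.73). For all genes, a mean count of at least 50 gave 3357 calls upstream, 5426 over gene bodies and 1089 downstream, where 8885, 8195 and 2831 were made. The genes tested were then 7418, 15535 and 7072, where 23200, 21393 and 21566 were tested. Receptor scaling gave 4615 over gene bodies. Leaving out 1 library gave from 0 to 2303 upstream (0 without KO replicate 1, with 5770 at an unadjusted p under 0.05), from 1430 to 11313 over gene bodies and from 695 to 4933 downstream. With library totals the split was 4369 higher and 3983 lower upstream and 6377 and 990 over gene bodies, where TMM gave 5557 and 3328, and 4935 and 3260. With receptor scaling it was 7188 and 39, and 4424 and 191. Downstream, TMM gave 2338 and 493, library totals 2115 and 943, and receptor scaling 2098 and 61. Pooled totals gave 7668 and 458 upstream and 5666 and 1360 over gene bodies.

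The labels give both groups the same replicate numbers, without saying that a number marks a shared animal or day. Same-numbered libraries deviated in opposite directions (r = -0.28 upstream, -0.37 over gene bodies and -0.22 downstream, across genes, which are not replicates). With the replicate block 4353 upstream regions, 3679 gene bodies and 2408 downstream regions passed. Among them were 1 of the 10 over the gene body (Kitl) and 1 downstream (Kitl, -1.37). A block with crossed numbers was chosen after seeing the data. With it 2 of the 10 passed upstream, 8 over gene bodies (7 lower and 1 higher) and 2 downstream. Of all genes, 11874 of 23200 upstream regions, 12047 of 21393 gene bodies and 5187 of 21566 downstream regions passed.

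Signs that turned belonged to differences that had not passed. With receptor scaling the upstream log2 folds became 0.24 (Cxcl12), 0.022 (Kitl), 0.30 (Lepr), 0.61 (Kdr) and 0.69 (Pecam1), and with pooled totals 0.22 (Kdr) and 0.30 (Pecam1). With library totals they became -0.038 (Angpt1) and -0.15 (Pdgfra), and Pecam1 was 0.029 at a mean count of at least 50. Over gene bodies Angpt1 became 0.33 with library totals, 0.20 with pooled totals, 0.63 with receptor scaling and 0.11 at a mean count of at least 50, and Pdgfrb 0.10 with library totals and 0.42 with receptor scaling. Downstream Cdh5 became 0.25 with receptor scaling. With 1 library left out, log2 folds ran from -0.16 to 0.61 (Angpt1), -0.16 to 0.36 (Pdgfra) and -0.50 to 0.091 (Pecam1) upstream, from -0.049 to 0.071 (Angpt1) over gene bodies, and from -0.28 to 0.19 (Cdh5) downstream. The upstream minus gene body value turned with library totals for Cxcl12 (-0.49), Angpt1 (-0.38), Lepr (-0.19) and Kdr (-0.19). It turned for Cdh5 with pooled totals (0.14) and receptor scaling (0.081), and ran from -0.12 to 0.25 (Cxcl12) and -0.23 to 0.64 (Angpt1) with 1 library left out. Where no value shows the cause of a change, the cause was not tested. No flank of the 10 held more than 167 reads in a library.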
